A study of Zea mays with 18 samples.

Results

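The circadian clock genes described here are 9 genes of the 39471 in the deposited maize table. They were taken by gene ID and comprise cca1, lhy1, 2 toc1 copies, gi1, gi2 and 3 other pseudo-response regulators, and all 9 had values in every library used. The RNA came from the third leaf of seedlings of the F1 hybrid An'nong 591, grown under 16 h of light and 8 h of dark. Heat-treated seedlings were held at 42 °C by day and 35 °C by night for 2 d (F1), and control seedlings of the same hybrid stayed at 28 °C by day and 23 °C by night (CF1), with 3 biological replicate libraries in each group. The series has 18 libraries, but for the parental lines no column name could be tied to a sample label, so 6 libraries of a single hybrid were used here. Neither the labels nor the methods state at what hour the leaves were taken, and each group was sampled at 1 time point, so that for these daily cycling transcripts a change in level, a change in timing and a difference in harvest hour cannot be told apart.

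The plant clock is a loop of transcription factors that repress each other in turn over the day, and most of what is known of it comes from Arabidopsis. There CCA1 and LHY, related Myb-type factors whose transcripts peak around dawn, hold back genes expressed in the evening, among them TOC1 and GI. TOC1 and the other pseudo-response regulators (PRRs), whose transcripts peak one after another from morning to evening, in turn repress CCA1 and LHY. GI (GIGANTEA) is a large protein that acts with F-box light receptors in the turnover of clock proteins and in the photoperiod control of flowering. The names gigantea1 and gigz1a (for gi1), gigz1b (for gi2) and PRR59 stand in the RefSeq gene table, which held 7 of the 9 gene IDs. The names cca1, lhy1 and toc1 and the grouping as PRRs come with the list of genes and were not checked against sequence.

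The 6 libraries held 12266758 to 14643512 counts each. The leaf markers pep1 and me3, enzymes of the C4 cycle in mesophyll and bundle sheath, had at least 618 FPKM in every library, and kn1 (shoot meristem) and o2 (endosperm) had 0 counts in all 6 libraries. Of the 5 leaf markers looked up, pep1, me3 and the Rubisco small subunit genes ssu1 and ssu2 were called lower in F1 (log2 fold changes -4.78 to -1.79, edgeR). The gene looked up as pdk1 (GRMZM2G097457) was not called (-0.77). It had 55.0 to 64.4 FPKM, far below pep1 and me3 in every library, and whether it is the gene of the C4 cycle was not checked. The part of these markers in the results for the clock genes was not tested. The heat shock gene hsp101 had 241 to 295 FPKM in F1 libraries and 0.98 to 1.52 FPKM in CF1 libraries. The composition of the libraries differed between the groups: the 100 genes with the most counts took 14.7% to 16.0% of the counts in F1 and 36.6% to 39.3% in CF1. FPKM (fragments scaled by exonic length and library size) are relative to the library total, whereas the fold changes below come from edgeR's quasi-likelihood test on the counts after TMM scaling, which sets the typical gene near no change. The TMM factors were 1.30 to 1.33 in F1 and 0.734 to 0.770 in CF1. Compared with TMM scaling, scaling by library totals raised the log2 fold change of the median gene by 0.80. A gene counted as up- or down-regulated (called) when it changed at least 2-fold with an FDR no higher than 0.05, and p-values were adjusted over the 20622 genes whose mean FPKM reached 1 in F1 or in CF1. Fold changes are given with their standard error (SE).

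In the heat-treated hybrid, both toc1 copies were up-regulated, cca1, lhy1, gi1, gi2 and the PRR genes GRMZM2G005732 and GRMZM2G095727 were down-regulated, and PRR59 was not called. That is 2 of 9 genes up, where 24.1% of all genes tested were called up, and 6 of 9 down, where 19.9% of all genes were called down and 44.0% were called in either direction. Their median on the log2 scale was -1.29, against 0.05 over all genes tested. On TMM-scaled values, all F1 libraries were higher than all CF1 libraries for 2 of the 9 genes (39.1% of all genes) and lower for 6 (36.0% of all genes). In the deposited FPKM they were higher for 3 (64.3% of all genes) and lower for 5 (16.2% of all genes). In bulk leaf RNA, fewer cells of a type and less RNA per cell cannot be told apart.

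**Figure D1:**
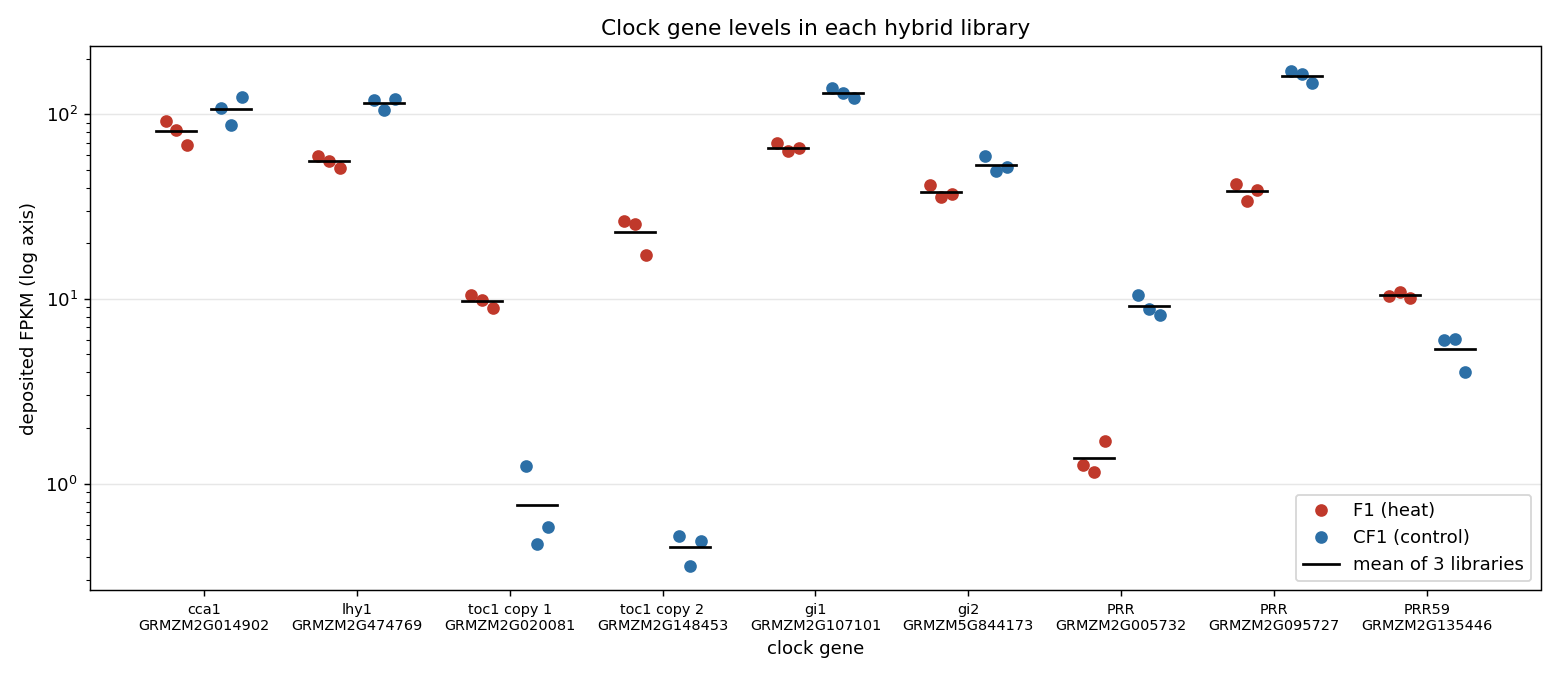
Deposited FPKM on a log axis for each of the 9 clock genes, with 1 point per library, F1 (heat) left of CF1 (control), and a line at the mean of 3 libraries. The toc1 copies sit at 8.97 to 26.27 FPKM in F1 and at 0.36 to 1.24 FPKM in CF1, and the point clouds of cca1 overlap.

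Among the morning genes, lhy1 (GRMZM2G474769) had 59.52, 56.06 and 51.01 FPKM in the F1 libraries, against 119.99, 105.04 and 120.32 FPKM in the CF1 libraries. Every F1 library was lower than every CF1 library, and the spread within each group was small next to the gap. By TMM-scaled counts, lhy1 fell by 1.85 on the log2 scale (SE 0.12, adjusted p = 5.16e-07, edgeR). Relative to library totals its log2 fold change was -1.05, still past the threshold. The RefSeq record of lhy1 also lists a second gene ID, GRMZM2G175265, a gene model with an exonic length of 459 bases that was counted on its own. It had 50.57, 49.98 and 39.99 FPKM in F1 and 131.36, 124.33 and 136.93 FPKM in CF1, and fell by 2.28 on the log2 scale (SE 0.12, adjusted p = 1.61e-07, edgeR). Both models of this record were thus lower in each F1 library than in any CF1 library.

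The level of cca1 (GRMZM2G014902), the partner of lhy1, changed less. It had 92.04, 82.12 and 68.28 FPKM in F1, against 108.4, 86.96 and 123.25 FPKM in CF1. The ranges overlap, since the highest F1 library lies above the lowest CF1 library. After TMM scaling the values were 69.7, 61.8 and 52.6 in F1 and 141.1, 113.1 and 168.2 in CF1, without overlap, and cca1 was called down-regulated: it fell by 1.20 on the log2 scale (SE 0.16, adjusted p = 0.0001, edgeR). This call rests on the scaling: relative to library totals the log2 fold change was -0.39 (adjusted p = 0.0365), and with the top 100 genes left out of the totals it was -0.83, both short of a fold change of 2.

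The toc1 copies, the evening counterpart of cca1 and lhy1 in Arabidopsis, moved the other way. The copy GRMZM2G148453 had 568, 556 and 367 counts (26.27, 25.56 and 17.25 FPKM) in F1, against 11, 7 and 9 counts (0.52, 0.36 and 0.49 FPKM) in CF1. By level it stood at percentile 76.6 of the genes tested in F1 and at percentile 8.39 in CF1, where few reads fell on it. It rose by 4.84 on the log2 scale (SE 0.25, adjusted p = 1.45e-07, edgeR), a 28.7-fold increase.

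The copy GRMZM2G020081 had 389, 369 and 328 counts (10.47, 9.88 and 8.97 FPKM) in F1, against 45, 16 and 18 counts (1.24, 0.47 and 0.58 FPKM) in CF1. Replicate 1 of CF1 was the highest control library, yet it stayed far below every F1 library. It rose by 2.86 on the log2 scale (SE 0.28, adjusted p = 8.16e-06, edgeR), a 7.26-fold increase, and by 3.41 without that control library. Both copies entered the test through their level in F1 alone, as their means in CF1 were under 1 FPKM, so they could not have entered it at the same low level in both groups. With no filter on low values, both were up-regulated too, with log2 fold changes of 4.87 for GRMZM2G148453 and 2.89 for GRMZM2G020081.

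The GIGANTEA genes were abundant in both groups. The gene gi1 (GRMZM2G107101) had 69.53, 62.84 and 65.26 FPKM in F1, against 138.96, 129.71 and 121.64 FPKM in CF1. The replicates of each group lay close together, and the groups did not overlap. It fell by 1.78 on the log2 scale (SE 0.11, adjusted p = 5.20e-07, edgeR).

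Its copy gi2 (GRMZM5G844173) had 41.34, 35.46 and 36.74 FPKM in F1, against 59.19, 48.92 and 51.49 FPKM in CF1. The groups did not overlap, but the gap was narrower than that of gi1. It fell by 1.29 on the log2 scale (SE 0.12, adjusted p = 6.00e-06, edgeR). Relative to library totals, the log2 fold changes were -0.98 for gi1 and -0.49 for gi2, and neither gene reached the fold change threshold.

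The 3 other pseudo-response regulators differed among themselves. GRMZM2G095727 had 42.1, 34.02 and 38.64 FPKM in F1, against 171.85, 164.07 and 146.99 FPKM in CF1, where it was the most abundant clock gene. It fell by 2.87 on the log2 scale, a 7.31-fold decrease (SE 0.13, adjusted p = 7.01e-08, edgeR). GRMZM2G005732 had 77, 71 and 103 counts (1.26, 1.15 and 1.71 FPKM) in F1, against 625, 490 and 424 counts (10.44, 8.83 and 8.23 FPKM) in CF1. It fell by 3.53 on the log2 scale, an 11.6-fold decrease and the largest among the 9 genes (SE 0.17, adjusted p = 8.95e-08, edgeR). The groups did not overlap for either gene in counts, FPKM or TMM-scaled FPKM.

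PRR59 (GRMZM2G135446) had 10.36, 10.85 and 10.11 FPKM in F1, against 6.01, 6.05 and 4.02 FPKM in CF1. In these values all F1 libraries were higher, but after TMM scaling they were 7.85, 8.16 and 7.79 in F1 and 7.82, 7.87 and 5.48 in CF1, and the groups overlapped. On the log2 scale the change was 0.16 (SE 0.15, adjusted p = 0.330, edgeR). Relative to library totals it was 0.96 (adjusted p = 0.000241), under the fold change threshold as well. The median gene stood at 0.85 on that scale, close to PRR59, and the toc1 copies at 5.64 for GRMZM2G148453 and 3.65 for GRMZM2G020081.

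**Figure D2:**
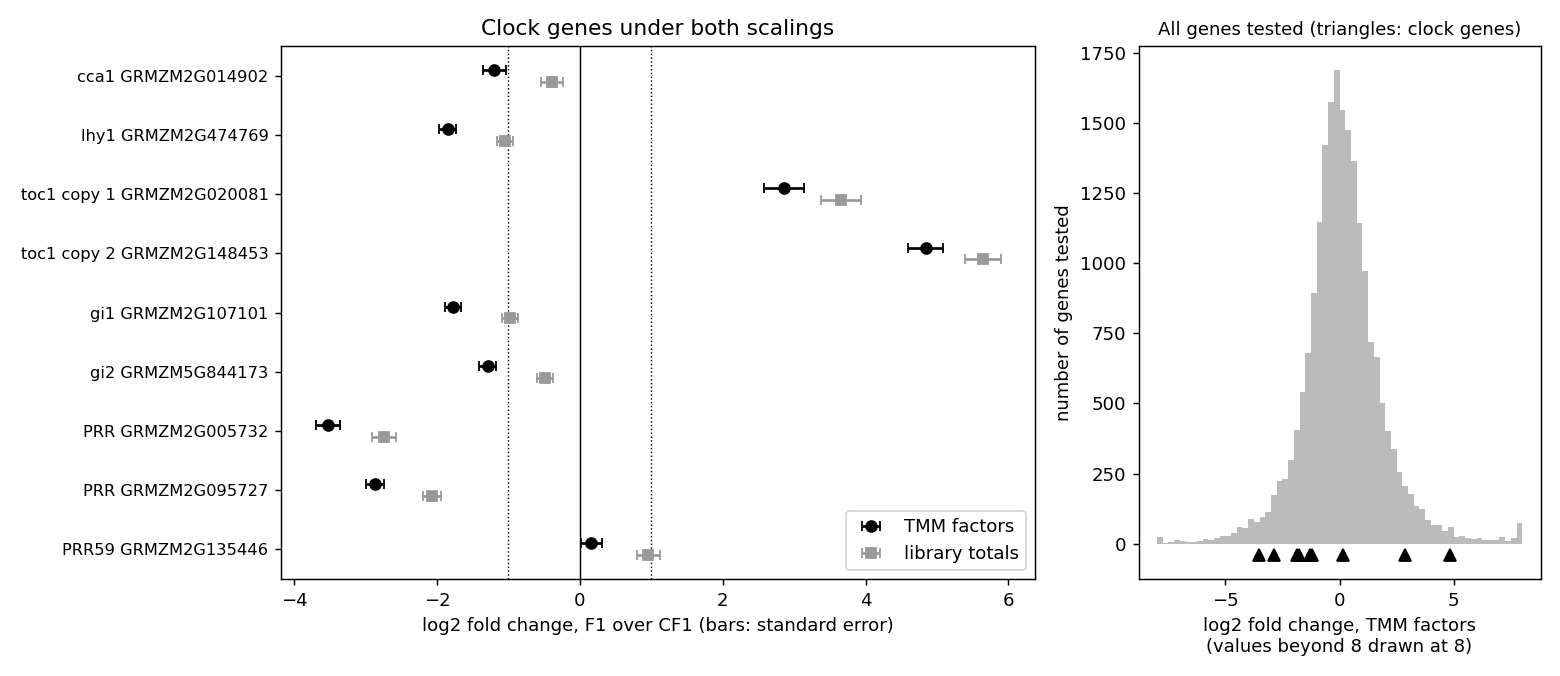
Left: log2 fold change of F1 over CF1 with its standard error for each clock gene, with TMM factors (circles) and with library totals (squares), and dotted lines at a fold change of 2 in either direction. Right: number of genes tested by log2 fold change with TMM factors, with triangles for the clock genes. The toc1 copies lie at 2.86 and 4.84 with TMM factors, and library totals move all 9 genes upward without changing any sign.

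Scaling decided the call for 3 of the 9 genes. Relative to library totals, 2 genes were up-regulated (45.0% of all genes were called up) and 3 down-regulated (9.21% of all genes were called down), namely lhy1, GRMZM2G005732 and GRMZM2G095727, whereas cca1, gi1 and gi2 were not called. Ratios between genes of the same library do not depend on this choice. The ratio of lhy1 to the toc1 copy GRMZM2G148453 in FPKM was 2.27, 2.19 and 2.96 in F1, against 231, 292 and 246 in CF1. The log2 ratio differed by -6.70 between the group means of 1.29 ± 0.24 in F1 and 7.99 ± 0.18 in CF1 (SD, n = 3 each). For cca1 and the same copy the ratio was 3.50, 3.21 and 3.96 in F1, against 208, 242 and 252 in CF1. The morning transcripts were thus 2.19- to 3.96-fold this copy in heat-treated leaves and 208- to 292-fold in control leaves, with no overlap between the groups. The control ratios rest on 11, 7 and 9 counts of this copy, which passed the filter only through F1. They draw on the same values as the fold changes above. With the copy GRMZM2G020081, the log2 ratio to lhy1 averaged 2.51 in F1, against 7.37 ± 0.67 (SD, n = 3) in CF1.

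The ratios of the morning genes to the GIGANTEA genes differed by -0.56 to 0.59 on the log2 scale between the groups. The log2 ratio of lhy1 to gi1 was -0.25 ± 0.10 in F1 and -0.18 ± 0.15 in CF1 (SD, n = 3 each), and the groups overlapped. That of cca1 to gi2 was 1.09 ± 0.17 in F1 and 0.99 ± 0.24 in CF1 (SD, n = 3 each), again with overlap. With the other pairings the ranges were apart: cca1 to gi1 was 0.29 ± 0.19 in F1 and -0.31 ± 0.30 in CF1, and lhy1 to gi2 was 0.55 ± 0.10 in F1 and 1.12 ± 0.10 in CF1 (SD, n = 3 each). For cca1 to gi1 the ranges were only just apart, at 0.07 in F1 replicate 3 and 0.02 in CF1 replicate 3.

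Ratios were also taken within the pairs of related genes. How often the ratio of other gene pairs separates the groups was not computed, and 75.2% of all genes tested did not overlap between the groups on TMM-scaled values. The ratio of cca1 to lhy1 was 1.55, 1.46 and 1.34 in F1, against 0.903, 0.828 and 1.02 in CF1. Thus cca1 exceeded lhy1 in all 3 F1 libraries and in 1 CF1 library. For lhy1, all ratios and the order of levels below use GRMZM2G474769 alone, without the counts of GRMZM2G175265. The ratio of the toc1 copy GRMZM2G148453 to GRMZM2G020081 was 2.51, 2.59 and 1.92 in F1, against 0.419, 0.766 and 0.845 in CF1. GRMZM2G148453 thus had the higher level of the pair in every heat-treated library. In CF1 its values were the lower ones, but they rest on 7 to 11 counts, against 16 to 45 for GRMZM2G020081. The FPKM ranges of the toc1 copies overlap there, so their order in control leaves is uncertain. The ratio of gi1 to gi2 was 1.68, 1.77 and 1.78 in F1, against 2.35, 2.65 and 2.36 in CF1. On the log2 scale the group means of these ratios differed by 0.66 for cca1 to lhy1, by 1.84 for the toc1 copies and by -0.49 for gi1 to gi2. How reads that fit more than one copy were counted was not examined here.

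**Figure D3:**
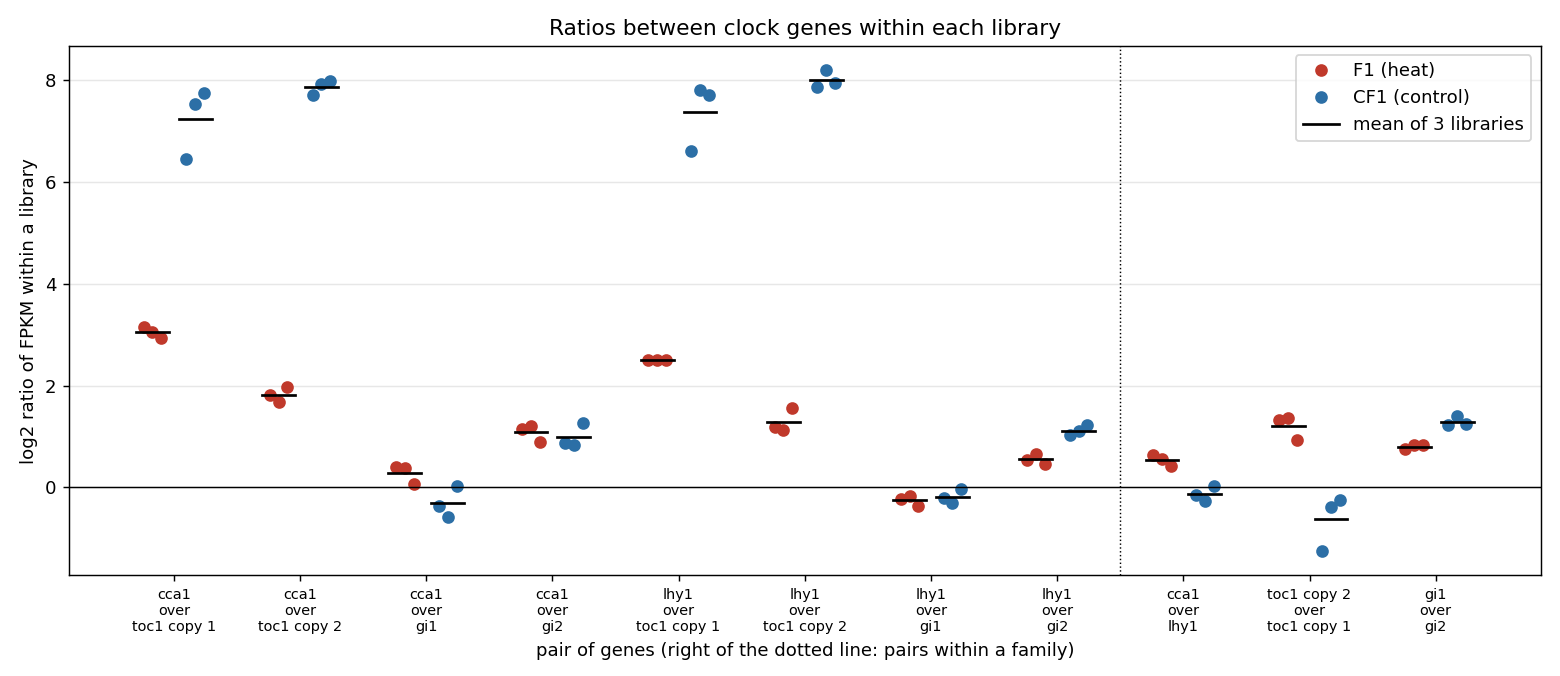
Log2 ratio of the FPKM of a pair of clock genes within each library, 1 point per library, F1 (heat) left of CF1 (control), with a line at the mean of 3 libraries. The ratios of cca1 and lhy1 to the toc1 copies lie between 1.13 and 3.14 in F1 and between 6.45 and 8.19 in CF1, while those to gi1 and gi2 stay between -0.58 and 1.26 in all libraries.

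The order of the clock genes by level differed between the groups. In F1 the mean FPKM was 80.8 ± 11.9 for cca1, 65.9 ± 3.39 for gi1, 55.5 ± 4.28 for lhy1, 38.2 ± 4.05 for GRMZM2G095727, 37.9 ± 3.09 for gi2, 23.0 ± 5.01 for the toc1 copy GRMZM2G148453, 10.4 ± 0.376 for PRR59, 9.77 ± 0.756 for the toc1 copy GRMZM2G020081 and 1.37 ± 0.297 for GRMZM2G005732 (SD, n = 3). Neighbours whose ranges overlapped were cca1 and gi1, GRMZM2G095727 and gi2, and PRR59 and GRMZM2G020081. In CF1 the order was GRMZM2G095727 with 161.0 ± 12.7, gi1 with 130.1 ± 8.67, lhy1 with 115.1 ± 8.73, cca1 with 106.2 ± 18.2, gi2 with 53.2 ± 5.34, GRMZM2G005732 with 9.17 ± 1.14, PRR59 with 5.36 ± 1.16, GRMZM2G020081 with 0.763 ± 0.416 and GRMZM2G148453 with 0.457 ± 0.0851 FPKM (SD, n = 3). There lhy1 overlapped with cca1, and the toc1 copies overlapped with each other. The mean of the highest gene was 58.8-fold that of the lowest in F1 and 352-fold in CF1. This order of the spans rests on the low level of the toc1 copies in CF1: over the other 7 genes, a comparison added after seeing the data, the span was 58.8-fold in F1 and 30.0-fold in CF1. Together the 9 genes had 14822 to 17385 counts per library in F1, against 25988 to 32937 in CF1.

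The biological coefficient of variation from edgeR, which is drawn toward that of other genes, lay between 10.9% (gi1) and 18.3% (the toc1 copy GRMZM2G020081), with a median of 14.4% over all genes tested. The coefficient of variation of the TMM-scaled FPKM between replicates was wider: 2.47% (PRR59) to 22.9% (GRMZM2G005732) in F1, with a median of 11.2% over all genes, and 4.61% (gi1) to 53.0% (GRMZM2G020081) in CF1, with a median of 15.4%. The profile over the 6 libraries on log2(TMM-scaled FPKM + 1) gives little resolution, since it is mostly the difference between the groups: 1109 genes had a Pearson r of at least 0.99 with lhy1. The nearest were GRMZM2G371313 (r = 0.9996), GRMZM2G004455 (r = 0.9996) and GRMZM2G069708 (r = 0.9995), and of the clock genes gi1 was the nearest with rank 589 (r = 0.9938). For the toc1 copy GRMZM2G148453 the nearest were GRMZM2G174757 (r = 0.9998), GRMZM2G457211 (r = 0.9998) and GRMZM2G143499 (r = 0.9997), and the other copy had rank 1716 (r = 0.9829).

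Of the other clock-associated genes looked up by name, the RefSeq table named 6: the phytochromes (light receptors) PhyB1, PhyB2 and phyA2, the phytochrome-interacting factors PIF4 and PIF5, and conz1, a CONSTANS gene of the photoperiod pathway. No gene was found under the names used for the evening complex, the other Myb factors of the CCA1 family, the LNK proteins, the F-box light receptors or the cryptochromes. Of the 6 genes, 5 passed the filter on low values, 1 was called up and 0 down, where 24.1% and 19.9% of all genes tested were called up and down. The median log2 fold change of the 5 was 0.91, against 0.05 over all genes, and it was -0.25 over the 13 genes tested once further names of the same families were added after seeing the data. The gene called up was phyA2 (GRMZM2G181028). It had 32.13, 32.05 and 31.04 FPKM in F1, against 2.71, 2.89 and 2.72 FPKM in CF1, and it rose by 2.72 on the log2 scale (SE 0.10, adjusted p = 2.89e-08, edgeR). PhyB2 and conz1 were just short of the fold change threshold, with log2 fold changes of 0.91 and 0.98, and reached it relative to library totals, with 1.71 and 1.77. On that scale the median gene stood at 0.85, and 45.0% of all genes tested were called up. The log2 fold changes of PhyB1 and PIF5 were -0.25 and -0.95. PIF4, left out by the filter, had only 3, 1 and 0 counts in F1, against 7, 22 and 13 counts in CF1. With no filter on low values its log2 fold change was -4.15 (SE 0.83, adjusted p = 0.000537, edgeR).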

How the data were processed

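The authors trimmed the reads, aligned them to the maize B73 genome (RefGen_v3) with HISAT 2.0.1 and counted them per gene with HTSeq 0.6.1. They deposited raw counts, not normalized, and FPKM values, which are these counts divided by exonic length and library total. With 1 constant per library, 100% of the deposited FPKM were recomputed to within 0.01. The strand setting was not given in the sources used here. The 24 columns whose names match no sample were not used.

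Counts of F1 and CF1 (3 libraries each, separate biological replicates per the study's methods) were compared with edgeR 4.0.16 (glmQLFit, glmQLFTest, TMM, Benjamini-Hochberg), in R 4.3.3. The filter was a mean FPKM of at least 1 in F1 or CF1. The SE of a log2 fold change was its size over the root of F. In simulated data for this comparison (20622 genes), the fit recovered 95% of 200 genes changed by 2 on the log2 scale and called 14 unchanged genes. Both groups were simulated from CF1 levels and spread, without the difference in composition between the groups, and genes with low counts were not among those changed. The simulation therefore does not bear on the choice of scaling or on changes from low counts. Alternatives were DESeq2 1.42.0, limma 3.58.1 on log2(TMM-scaled FPKM + 1) or + 0.1, other scalings, filters and thresholds, a replicate block and each library left out.

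The 9 genes and the lists were chosen with earlier results of these data known. All 9 were named in the text, with the called genes among the clock-associated names and the 3 genes nearest in profile to lhy1 and to the more abundant toc1 copy. Gene names are from RefSeq (Zm-B73-REFERENCE-NAM-5.0), which held 18908 of the gene IDs. Promoter motifs were planned and not searched, as no sequence was used here.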

Additional observations from a re-analysis of the deposited data

How the results depend on the processing

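Of 135 log2 fold changes of the 9 clock genes under 15 alternatives, 130 kept their side of the threshold, 5 dropped below it and 0 changed sign. The 5 were cca1, gi1 and gi2 with library totals (-0.39, -0.98 and -0.49) and cca1 and gi2 with the top 100 genes by counts left out of those totals (-0.83 and -0.93), an alternative chosen after seeing the data. With library totals, 3 clock genes were down-regulated in place of 6, 3 clock-associated genes up-regulated in place of 1, and 9278 genes up- and 1900 down-regulated of all tested, in place of 4963 and 4102. Without the top 100 genes in the totals, 3 clock-associated genes were up-regulated, while 6666 of all genes were. With no filter on low values, 2 clock-associated genes were up and 1 (PIF4) down, while 5796 of all genes were up and 4565 down. With a mean FPKM of at least 5, 2 clock-associated genes were up, while 3219 of all genes were up-regulated. Under these 2 filter settings the number of genes tested was not 20622, so the counts cannot be read as shares of it. By FDR alone, 3 clock-associated genes rose and 2 fell, and 7571 of all genes rose and 7134 fell. With PHYC, COL and CK2 names added to that list, after seeing the data, 3 of 13 tested were up and 2 down (24.1% and 19.9% of all genes), and the median log2 fold change was -0.25 in place of 0.91. With each library left out in turn, clock-associated genes called up numbered 1 to 2 and called down 0 to 1. Over all genes, 4778 to 4973 were then up and 4002 to 4139 down. Deviations from the group means were nearly uncorrelated between same-numbered F1 and CF1 libraries (r of 0.0548, -0.0151 and 0.0355). Differently numbered libraries had r of -0.0656 to 0.0154. The labels give no pairing, and these values cannot settle whether a number marks a shared set. A replicate block left 2 clock genes up and 6 down, with 4903 of all genes up and 4045 down.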

Other observations

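Further genes of the same families carry other names in the RefSeq table and were looked up after the values of the first list were seen. The CONSTANS-like gene COL8 (GRMZM2G114137) had 46.49, 61.39 and 44.72 FPKM in F1, against 119.43, 154.61 and 66.81 FPKM in CF1, and fell by 1.95 on the log2 scale (SE 0.25, adjusted p = 6.85e-05, edgeR). COL14 (GRMZM2G042198) had 55, 30 and 42 counts in F1, against 2, 8 and 5 counts in CF1, and rose by 2.13 on the log2 scale (SE 0.50, adjusted p = 0.00327, edgeR). It passed the filter on low values only through F1, with a mean of 1.24 FPKM there and 0.163 FPKM in CF1; with no filter its log2 fold change was 2.16 (adjusted p = 0.00181, edgeR). The other gene ID named COL14, GRMZM2G167560, had 1, 2 and 0 counts in F1 and 2, 0 and 0 counts in CF1 and was not tested. COL5 and COL10 were not called, with log2 fold changes of -0.22 and -0.65. The CK2 genes GRMZM2G047855 and GRMZM5G857992 (ckb1), subunits of a protein kinase that phosphorylates CCA1 in Arabidopsis, had log2 fold changes of -0.82 and -0.33 and were not called.

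The RefSeq record named PHYC lists a pair of gene IDs that moved in opposite directions. GRMZM2G129889 had 301, 304 and 281 counts in F1, against 57, 86 and 84 counts in CF1 (log2 fold change 1.02, SE 0.20, adjusted p = 0.00110, edgeR). GRMZM2G129913 had 38, 46 and 32 counts in F1, against 68, 49 and 33 counts in CF1 (log2 fold change -1.28, SE 0.29, adjusted p = 0.00242, edgeR). The counts of GRMZM2G129913 overlap between the groups, and its log2 fold change relative to library totals was -0.49, not called. The gene IDs of lhy1, GRMZM2G474769 and GRMZM2G175265, moved in the same direction, with log2 fold changes of -1.85 and -2.28.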
